A study of Caenorhabditis elegans with 24 samples.

Results

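The comparison described here is that of total small RNA from Caenorhabditis elegans carrying the F180del allele of alg-1 against animals carrying the G199S allele, over all miRNAs counted. It rests on 4 of the 24 libraries of the study, 2 from alg-1(ma447,F180del) and 2 from alg-1(ma443, G199S), and on 437 named mature miRNAs, of which 398 had a read in at least 1 of the 4. Both alleles model changes of human AGO1 found in neurodevelopmental disorders, and the direct comparison asks in which miRNAs the alleles differ from each other. Wild-type N2 (WT) libraries, 2 from total RNA and 2 from the ALG-1 precipitate, are given for scale, as are the ALG-1 precipitates (IP) of both alleles. The tests also take their estimate of the spread from the other genotypes of the study, alg-1(zen25, V254I), alg-1(zen18,H751L) and the null alg-1(tm492, 0), whose levels are not described. All animals were whole worms from synchronised populations harvested after 45 h of feeding at 20 °C, and whether libraries 1 and 2 of a genotype stem from separate cultures is not in the labels; the p-values then reflect a spread that may be technical only.

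ALG-1 is one of the worm's Argonaute proteins for miRNAs. A hairpin precursor is cut into a duplex, an Argonaute keeps the guide strand, and the other strand, the passenger, is usually discarded, so that the Argonaute influences both which miRNAs are stable and which arm is seen. Reads in a small RNA library are shares of a whole, so every level below is relative to the other miRNAs of its library, and in whole animals fewer cells of a type and less RNA per cell cannot be told apart.

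The 4 libraries held between 7987427 and 9824973 miRNA reads and reads for 341 to 351 miRNAs. A count of 0 allows up to 3 reads, or 0.305 to 0.376 reads per 1000000 miRNA reads of a library (RPM). The F180del libraries differed more from each other than the G199S libraries did. Over the 303 miRNAs tested, the median absolute log2 difference between the libraries of a pair was 0.80 in F180del and 0.43 in G199S, and 33 and 5 miRNAs differed by more than 4-fold within the pair.

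The miRNAs called between F180del and G199S total RNA were mainly of the miR-35 family, which was lower in F180del. Also called was miR-8200-3p, which was present in F180del and nearly absent from G199S. Whatever their p, 119 of the 303 miRNAs tested differed by more than 1 log2 unit and 42 by more than 2, most of them not called. With edgeR's quasi-likelihood test, 1 miRNA was higher and 5 were lower in F180del at a Benjamini-Hochberg adjusted p under 0.05, which is 1.98% of the 303 tested (0.33% higher and 1.65% lower), and 37 (12.2%) had an unadjusted p under 0.05. With other scalings the split was 1 higher and 3 lower (RLE factors) and 2 higher and 4 lower (library totals). With TMM scaling but all precursor rows kept, it was 3 higher and 3 lower. The 5 that fell were miR-35-3p, miR-36-3p, miR-37-3p, miR-39-3p and miR-790-3p, and the 1 that rose was miR-8200-3p. The log2 differences had a median of -0.15 over all miRNAs tested. That median was 0.18 with another scaling, so small differences have no fixed sign. The number of calls rested on the libraries: it was 1 without F180del library 1 or G199S library 1, 2 without G199S library 2 and 4 without F180del library 2. It was 22 when only the 4 libraries compared entered the fit, 14 with DESeq2 and 15 without the filter on low counts.

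**Figure D1:**
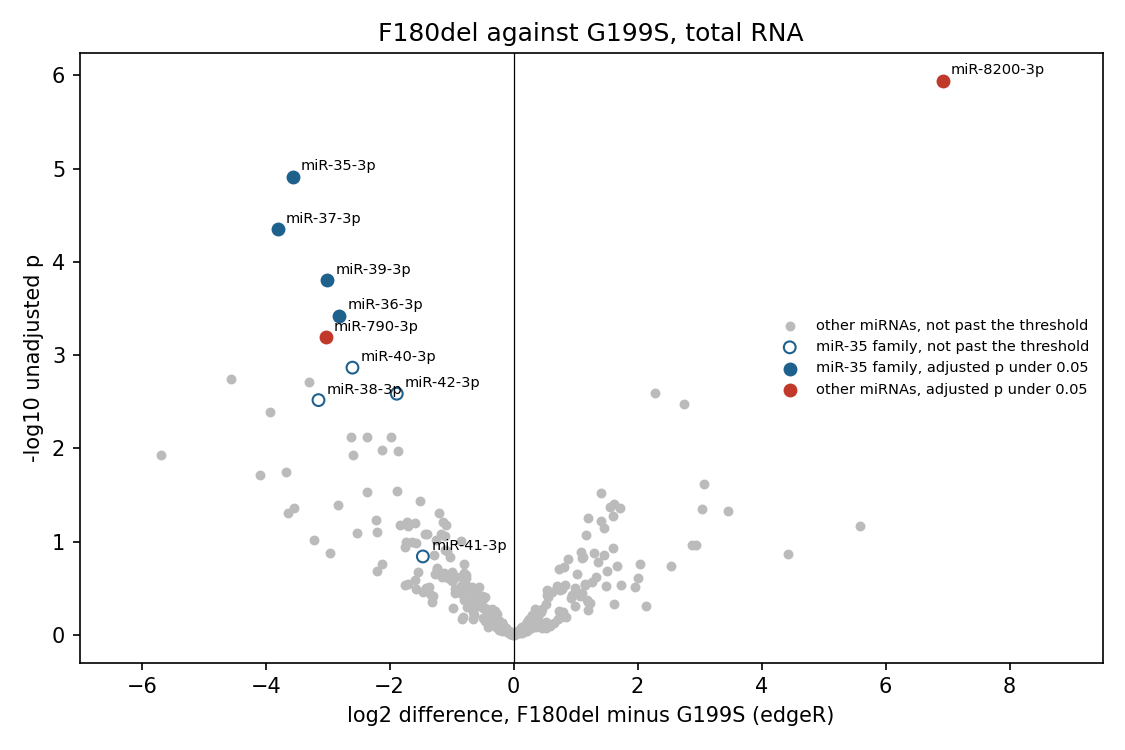
Each point is a miRNA in total RNA, with its log2 difference (F180del minus G199S, edgeR) on the x axis and the -log10 of its unadjusted p on the y axis; 303 miRNAs are shown. The 8 miR-35 family members all lie left of 0, 4 of them past the threshold, while miR-8200-3p stands alone at the upper right; its fitted difference depends on the 2 reads found in G199S.

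The miR-35 family is expressed in the germline and embryo and is needed for embryonic development. Its 8 guide strands share a seed, and 7 of the hairpins, mir-35 to mir-41, form a cluster on chromosome II, from 11537608 to 11538404 of the WBcel235 annotation on the plus strand, inside the protein-coding gene Y62F5A.9, which lies on the opposite strand. Those 7 may therefore not vary independently, and reads of near-identical members may have been divided between them by the counting.

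miR-35-3p, the most abundant member in both alleles' means, had 4613 and 4718 RPM in the F180del libraries, against 50965 and 39571 RPM in the G199S libraries and 2279 and 1372 RPM in WT. Both F180del libraries lay above both WT libraries, and both G199S libraries lay far above them all. Set against G199S, F180del differed by -3.56 ± 0.56 in log2 units (edgeR adjusted p = 0.00185; errors of log2 differences are SE, with the spread estimated over the 12 total RNA libraries). It stayed negative without any 1 of the 4 libraries, but its edgeR adjusted p was 0.102 without F180del library 1 and 0.064 without G199S library 1.

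miR-37-3p had 976 and 1171 RPM in F180del, against 11193 and 12907 RPM in G199S and 1065 and 396 RPM in WT, a log2 difference of -3.81 ± 0.67 between the alleles (edgeR adjusted p = 0.00451). miR-39-3p had 2672 and 1434 RPM in F180del, against 15967 and 12252 RPM in G199S (-3.01 ± 0.60, edgeR adjusted p = 0.0119). The scarcer miR-36-3p had 190.17 and 199.02 RPM in F180del, against 1006 and 1206 RPM in G199S (-2.81 ± 0.62, edgeR adjusted p = 0.0229). For each of these cluster members the groups did not overlap. Without any 1 of the 4 libraries these 3 miRNAs missed the threshold, and miR-36-3p also missed it with RLE factors, another way of scaling the libraries (edgeR adjusted p = 0.0636), and with all precursor rows (0.0742).

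The other 4 members did not pass. miR-40-3p had 6648 and 2370 RPM in F180del, against 31210 and 16908 RPM in G199S (-2.60 ± 0.66, edgeR adjusted p = 0.0589). miR-38-3p, with 19.2 and 34.5 RPM in F180del and 97.1 and 266 RPM in G199S, differed by -3.15 ± 0.89 (edgeR adjusted p = 0.0766). miR-41-3p varied most within F180del, at 120 and 20.5 RPM, against 173 and 172 RPM in G199S (-1.46 ± 0.95, edgeR adjusted p = 0.572). In all 3 the lowest G199S library was still above the highest F180del library. miR-40-3p and miR-38-3p were past the threshold with the replicate number as a block (edgeR adjusted p = 0.0144 and 0.0279), with DESeq2 (adjusted p = 0.00843 and 0.0271), on the 4 libraries compared alone and without the filter, but not without any 1 of the 4 libraries.

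miR-42-3p, whose hairpin lies apart from the cluster at 11889811 to 11889905 on chromosome II and beside mir-43, mir-44 and mir-45, followed another order. It had 3939 and 3674 RPM in F180del, against 10779 and 12159 RPM in G199S and 13685 and 12130 RPM in WT. G199S was thus near WT and F180del was the low group. For miR-35-3p, in contrast, F180del lay closer to WT than G199S did, and G199S was the high group. Its difference between the alleles was -1.89 ± 0.52 (edgeR adjusted p = 0.0714), and it passed when only the 4 libraries compared were fitted (edgeR adjusted p = 0.0249). Of its neighbours, miR-43-3p had 5.76 and 5.46 RPM in F180del, against 19.7 and 34.8 RPM in G199S (edgeR adjusted p = 0.170), and miR-44-3p overlapped between the alleles.

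Counted as a family, both G199S libraries were above both F180del libraries in 8 of 8 members, set beside 25.7% of all miRNAs tested (53.5% did not overlap in either direction), and the median log2 difference was -2.91, set beside -0.15. The family made up 1.92% and 1.36% of miRNA reads in F180del, against 12.1% and 9.54% in G199S and 1.97% and 1.55% in WT. The mean share was 1.64% ± 0.393 in F180del and 10.8% ± 1.83 in G199S (SD, n = 2 each), 6.61 times as much in G199S (exact permutation p = 0.3333, two-sided, the smallest that 2 against 2 can give). The similar shares in F180del and WT were made up of different members, as miR-42-3p gave 20.5% and 27.0% of the family's reads in F180del, 8.88% and 12.7% in G199S, and 69.4% and 78.1% in WT.

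**Figure D2:**
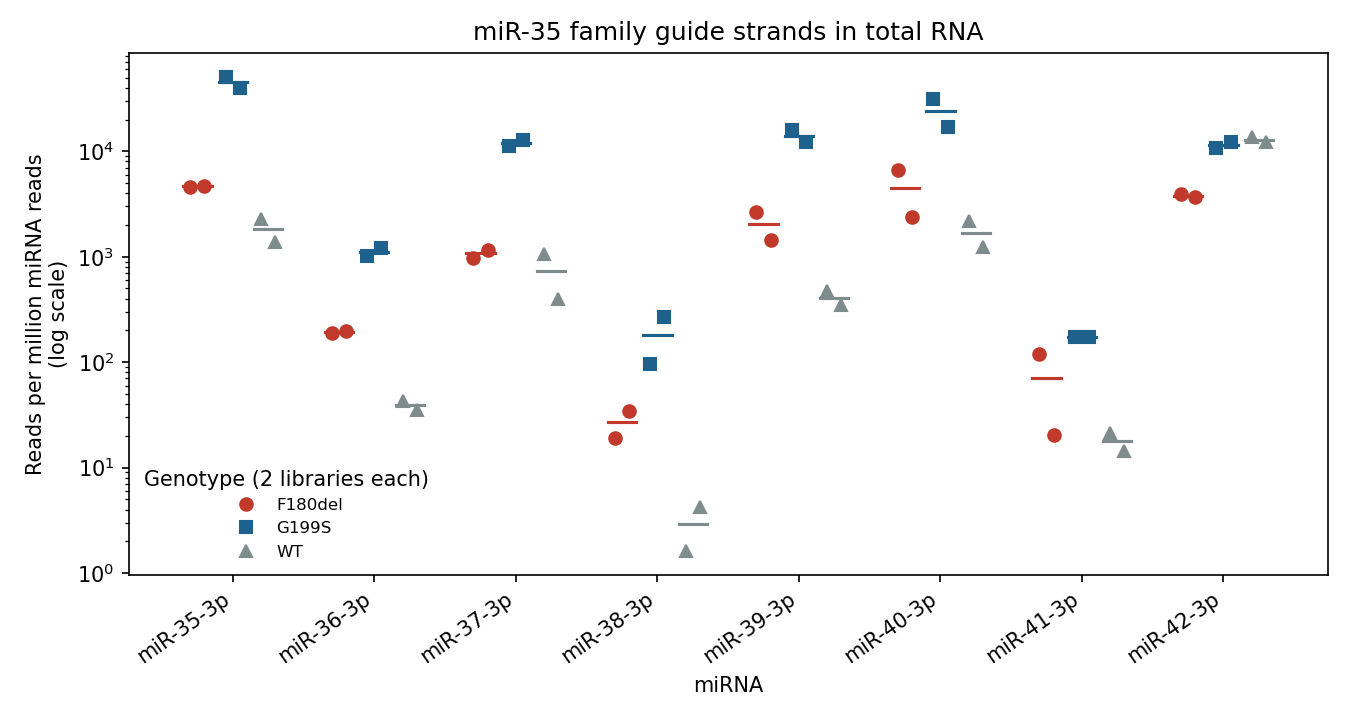
RPM of the 8 miR-35 family guide strands in total RNA on a log scale, with a point for each library and a line at each group mean (F180del, G199S and WT, 2 libraries each). G199S lies above F180del for every member; for miR-42-3p WT lies with G199S, and for miR-35-3p and miR-37-3p the F180del libraries are closest to WT.

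The comparisons of each allele with WT share the WT libraries, so their values are given side by side only. In F180del against WT 47 of 303 miRNAs passed (15.5%), 34 higher (11.2%) and 13 lower (4.29%), and 31.7% had an unadjusted p under 0.05. In G199S against WT 36 passed (11.9%), 33 higher (10.9%) and 3 lower (0.99%), and 30.4% had an unadjusted p under 0.05. For miR-35-3p the log2 difference from WT was 0.88 ± 0.51 in F180del (edgeR adjusted p = 0.269) and 4.44 ± 0.58 in G199S (edgeR adjusted p = 0.000108). For miR-39-3p it was 1.90 ± 0.58 in F180del (edgeR adjusted p = 0.0407) and 4.91 ± 0.66 in G199S (edgeR adjusted p = 0.000108). For miR-42-3p it was -2.25 ± 0.53 in F180del (edgeR adjusted p = 0.0148) and -0.36 ± 0.51 in G199S (edgeR adjusted p = 0.688). At an adjusted p under 0.05, 1 of the 8 family members was higher than WT in F180del, and 6 were in G199S. Without passing, miR-35-3p, miR-36-3p, miR-38-3p and miR-40-3p also had both F180del libraries above both WT libraries. The share of all miRNAs tested with that order was not counted, so it cannot be read as particular to the family. For miR-36-3p, WT had 42.4 and 35.4 RPM (edgeR adjusted p = 0.0502 for F180del against WT). In F180del, miR-37-3p and miR-41-3p overlapped with WT and miR-42-3p was lower. The F180del calls against WT rested on the WT libraries. Leaving out WT library 1 gave a count of 1, and miR-39-3p then had an edgeR adjusted p of 0.152. Leaving out WT library 2 gave 16, and miR-39-3p then had 0.0933. The miR-42-3p call was lost without any 1 of the 4 libraries of that comparison, with edgeR adjusted p between 0.0676 and 0.128. In G199S miR-35-3p and miR-39-3p passed without either WT library. The G199S count was 12 without the first WT library, 20 without the second, 21 without G199S library 1 and 18 without G199S library 2.

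The 5p arms of the family, called its passengers here, were scarcer than the 3p guides, except for miR-41-5p. All 8 had a negative log2 difference, from -3.30 to -0.29 with a median of -2.09, none passed, and both G199S libraries were above both F180del libraries in 5, set beside 25.7% of all miRNAs tested. miR-39-5p had 23.5 and 14.9 RPM in F180del, against 169.2 and 149.5 RPM in G199S, and at most 0.177 RPM in a WT library (F180del minus G199S -3.30 ± 0.88, edgeR adjusted p = 0.0658). miR-41-5p had 50.6 and 78.2 RPM in F180del, against 221 and 186 RPM in G199S (-1.99 ± 0.65, edgeR adjusted p = 0.136). It was above miR-41-3p in both G199S libraries and in F180del library 2, but not in F180del library 1. In the IP its mean was above that of miR-41-3p in both alleles (23.6 against 4.22 RPM in F180del, 97.8 against 6.28 RPM in G199S). The names guide and passenger are thus uncertain for this hairpin. These arms were chosen for description after their values were seen.

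miR-8200-3p separated the alleles in the opposite direction. Its hairpin lies on chromosome V at 3057062 to 3057117 of WBcel235, outside protein-coding genes and with no other annotated miRNA within 10 kb. It had 140 and 189 reads in the F180del libraries, or 17.5 and 20.2 RPM, against 1 read in each G199S library, or 0.123 and 0.102 RPM. The WT libraries had 61.3 and 52.4 RPM, so that F180del lay between G199S and WT. The pooled reads gave a ratio of 171 between F180del and G199S, with an exact 95% interval of 46.9 to 1416 that covers counting error only (edgeR adjusted p = 0.000346). The call held without any 1 of the 4 libraries, with edgeR adjusted p between 0.000527 and 0.0207. The other arm of the hairpin, miR-8200-5p, was rare and pointed the same way, with 3.76 and 2.57 RPM in F180del against 0.490 and 0 RPM in G199S (edgeR adjusted p = 0.401).

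The remaining miRNAs with the smallest p on the higher side did not pass. miR-79-3p had 14342 and 6239 RPM in F180del, against 1672 and 1921 RPM in G199S and 2015 and 1717 RPM in WT. Both F180del libraries were above the 4 others, and the log2 difference from G199S was 2.29 ± 0.63 (edgeR adjusted p = 0.0714). The value was past the threshold with library totals as the scaling (edgeR adjusted p = 0.0411), with only the 4 libraries in the fit (0.0148) and with DESeq2 (0.00287). Its passenger miR-79-5p overlapped, at 297 and 558 RPM in F180del and 348 and 393 RPM in G199S.

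miR-48-3p is the passenger arm of mir-48, a let-7 relative that times larval development, and its hairpin on chromosome V has mir-241, of the same family, within 10 kb. It had 447 and 113 RPM in F180del, against 53.8 and 21.3 RPM in G199S and 35.3 and 19.1 RPM in WT, a log2 difference of 2.75 ± 0.79 between the alleles (edgeR adjusted p = 0.0776). The guide miR-48-5p had 76065 and 72391 RPM in F180del, against 47669 and 41639 RPM in G199S (0.45 ± 0.77, edgeR adjusted p = 0.922). The difference between the arms did not pass, with a passenger to guide log2 ratio of 1.99 ± 1.14 (limma adjusted p = 0.959). With DESeq2 (adjusted p = 0.00396) and on the 4 libraries compared alone (edgeR adjusted p = 0.0416), miR-48-3p was past the threshold. The other family member beside it, miR-241-5p, had 3411 and 2811 RPM in F180del, against 1480 and 845 RPM in G199S (1.17 ± 0.63, edgeR adjusted p = 0.469).

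miR-85-5p, a minor arm, had 103 and 58 reads in F180del, against 9 and 8 reads in G199S and 0 and 1 reads in WT. The pooled ratio of F180del to G199S was 9.83, with an exact 95% interval of 5.95 to 17.3 for counting error (edgeR adjusted p = 0.307). The guide of that hairpin, miR-85-3p, reached 300.3 and 4948 RPM in F180del, against 2062 and 3091 RPM in G199S, so the 2 F180del libraries lay on either side of both G199S libraries. Against 13.0 and 12.6 RPM in WT, the guide was high in both alleles.

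miR-357-3p had 159 and 183 RPM in F180del, against 59.2 and 45.0 RPM in G199S and 56.0 and 49.7 RPM in WT (1.42 ± 0.59, edgeR adjusted p = 0.335). Its hairpin lies within symk-1 on the opposite strand and within 10 kb of mir-358, whose miR-358-3p had 102 and 43.3 RPM in F180del, against 24.8 and 22.3 RPM in G199S (1.41 ± 0.69, edgeR adjusted p = 0.430). miR-799, on chromosome X, had 125 and 67.2 RPM in F180del, against 27.3 and 25.9 RPM in G199S and 68.4 and 52.2 RPM in WT (1.61 ± 0.71, edgeR adjusted p = 0.395). For miR-799 the F180del libraries were thus near WT and the G199S libraries low.

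miR-790-3p was the only called miRNA outside the miR-35 family that fell in F180del. It is the rare arm of its hairpin, which lies on chromosome IV within 10 kb of mir-228. It had 4.38 and 5.998 RPM in F180del, against 28.3 and 39.2 RPM in G199S and 7.92 and 7.99 RPM in WT, a log2 difference of -3.03 ± 0.71 between the alleles (edgeR adjusted p = 0.0321). The WT libraries were close to F180del, and G199S was the high group. The more abundant arm miR-790-5p overlapped, with 835 and 326 RPM in F180del and 699 and 633 RPM in G199S. The call was lost without any 1 of the 4 libraries, with each other scaling (edgeR adjusted p = 0.0668 with RLE factors and 0.0588 with library totals) and with all precursor rows.

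**Figure D3:**
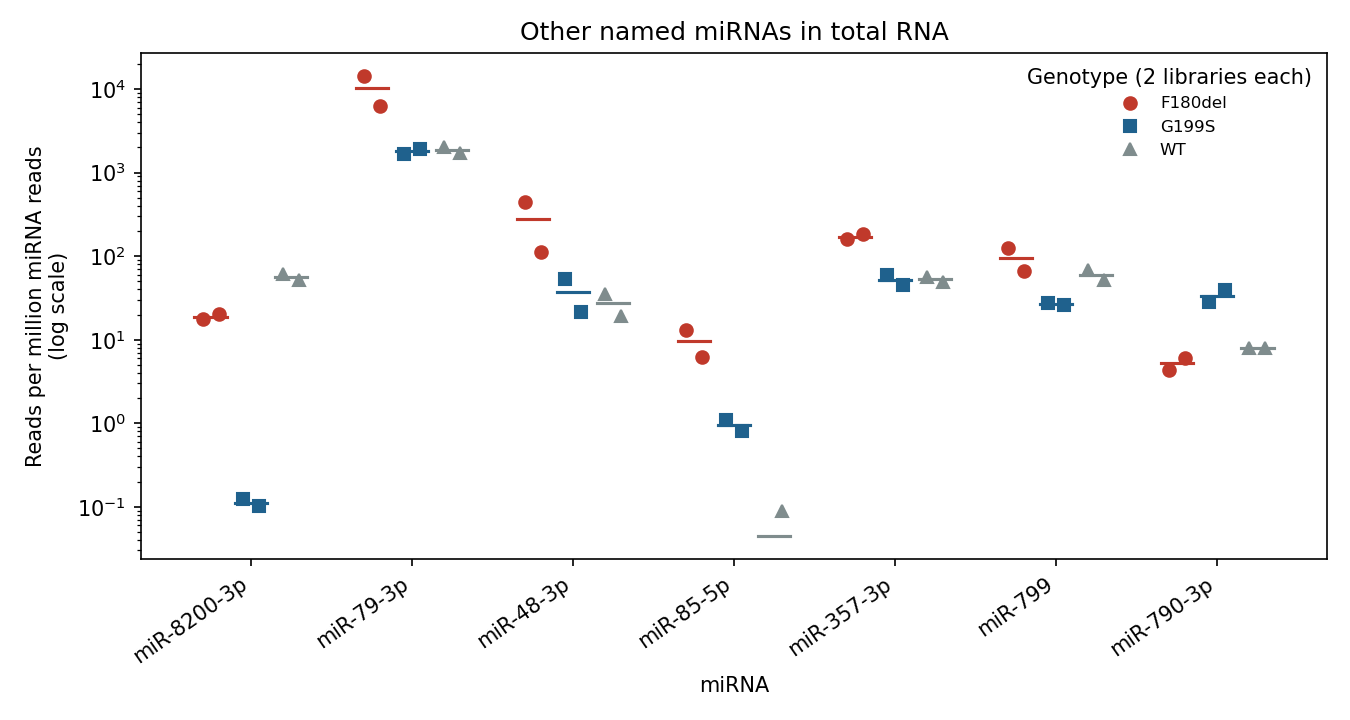
RPM of 7 further named miRNAs in total RNA on a log scale, with a point for each library and a line at each group mean; 1 WT library had 0 reads of miR-85-5p and has no point. F180del lies above G199S for the first 6 and below it for miR-790-3p, and WT lies near G199S for miR-79-3p, miR-48-3p and miR-357-3p.

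Lists of other miRNA families and of tissue-restricted miRNAs were examined for the same contrast, and in none of the 9 lists beside the miR-35 family did a member pass. Of the let-7 family, which with lin-4 times larval stages, 0 of 7 members passed, with a median log2 difference of 0.45, and both F180del libraries were above both G199S libraries in 4, set beside 27.7% of all miRNAs tested. let-7-5p had 11347 and 17300 RPM in F180del, against 7396 and 5939 RPM in G199S (0.78 ± 0.76, edgeR adjusted p = 0.762). lin-4-5p had 4757 and 2555 RPM in F180del, against 1908 and 1476 RPM in G199S (0.88 ± 0.59, edgeR adjusted p = 0.588). Its relative miR-237-5p had 2786 and 3873 RPM in F180del, against 1503 and 1537 RPM in G199S. Other let-7 members did not follow: miR-793 had 200.6 and 175.0 RPM in F180del, against 287 and 253 RPM in G199S, and miR-84-5p and miR-794-5p overlapped between the alleles. Whether the animals differed in stage or germline content was not tested.

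Of the tissue-restricted list 0 of 9 passed, with a median of -0.69, and both G199S libraries were above both F180del libraries in 5, set beside 25.7% of all miRNAs tested. The muscle miRNA miR-1-3p overlapped, at 179157 and 124544 RPM in F180del and 96636 and 141264 RPM in G199S. The intestinal miR-60-3p had 5110 and 5011 RPM in F180del, against 6638 and 6538 RPM in G199S (-0.67 ± 0.64, edgeR adjusted p = 0.758). The glial miR-228-5p had 30402 and 46199 RPM in F180del, against 51661 and 52322 RPM in G199S (-0.78 ± 0.71, edgeR adjusted p = 0.758). The neuronal lsy-6-3p sets left-right asymmetry of a taste neuron pair. It had 33.7 and 29.6 RPM in F180del, against 53.6 and 60.9 RPM in G199S (-1.14 ± 0.57, edgeR adjusted p = 0.430). The other neuronal miRNAs of the list, miR-124-3p, miR-234-3p and miR-791-3p, overlapped between the alleles. The largest difference in the list was that of miR-244-5p, with 12.1 and 40.1 RPM in F180del, against 95.8 and 109 RPM in G199S (-2.37 ± 0.98, edgeR adjusted p = 0.335).

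The stress and lifespan list also had 0 of 9 members past the threshold, with a median of -0.22. miR-71-5p, which promotes long life in worms, had 59542 and 83384 RPM in F180del, against 105204 and 99445 RPM in G199S (-0.84 ± 0.48, edgeR adjusted p = 0.499). miR-246-3p, a lifespan-linked miRNA, had 4927 and 3527 RPM in F180del, against 2049 and 2201 RPM in G199S (0.72 ± 0.54, edgeR adjusted p = 0.674). The medians of the miR-51 family (6 members tested), the miR-58 family (4), the miR-63 and miR-64 family (5), the miR-44 family (4) and the miR-2 family (4) lay between -1.01 and 0.00. In the miR-44 family, miR-44-3p and miR-45-3p had nearly equal reads in each library, such as 91450 and 91469 in F180del library 1. The same reads may have been counted for both. The most abundant miRNA of both F180del libraries was miR-58a-3p, a relative of the fly miRNA bantam, at 230575 and 182362 RPM, against 97987 and 166439 RPM in G199S (0.35 ± 0.53, edgeR adjusted p = 0.893).

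**Figure D4:**
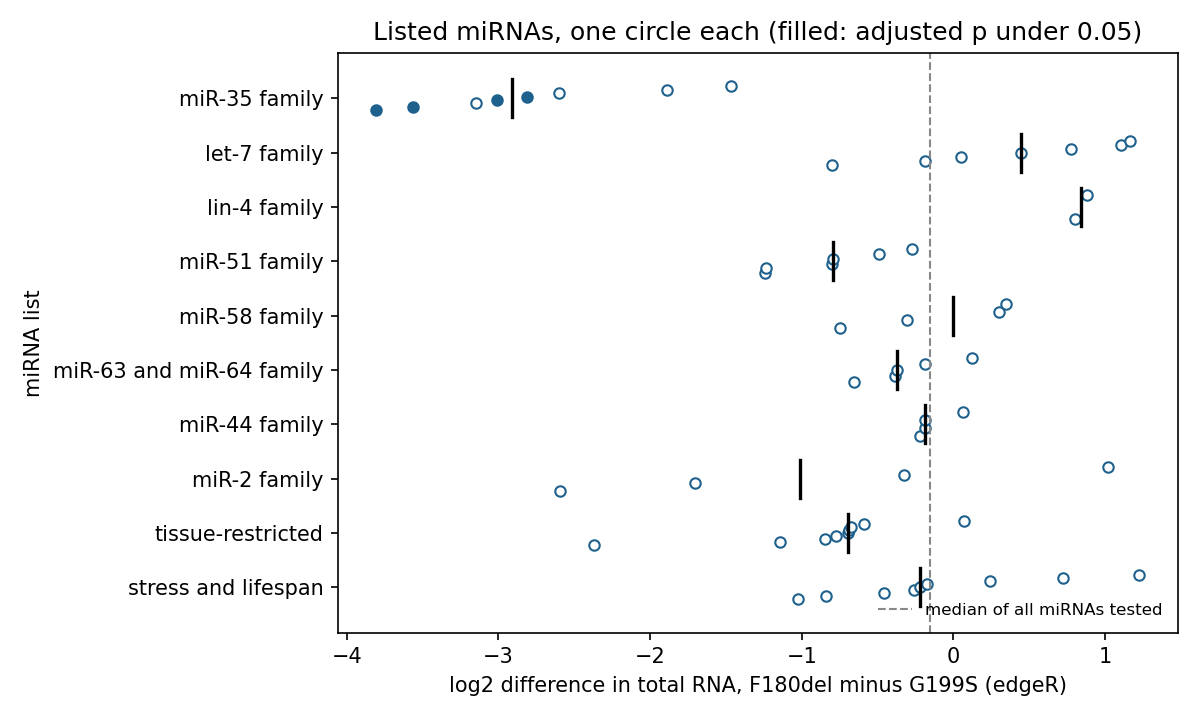
Log2 differences in total RNA (F180del minus G199S, edgeR) of the miRNAs in 10 lists, 1 circle per miRNA, filled where the adjusted p was under 0.05; black bars are list medians and the dashed line is the median of all 303 miRNAs tested. The miR-35 family holds every filled circle and has a median of -2.91; the other medians lie between -1.01 and 0.84.

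Arm balance was compared because the Argonaute chooses the strand. Passenger strands, taken as the arm with fewer reads summed across the total RNA libraries, made up 1.65% and 1.27% of miRNA reads in F180del, against 1.36% and 1.21% in G199S and 0.505% and 0.391% in WT. The alleles overlapped, with means of 1.46% ± 0.268 and 1.28% ± 0.102 (SD, n = 2 each; exact permutation p = 0.667, two-sided), and both were above WT. Per hairpin, no passenger to guide ratio of 99 tested passed by limma (0.0% of those tested), and 5 (5.05%) had an unadjusted p under 0.05. By unadjusted p the mir-79 hairpin came first, with its passenger at 2.07% and 8.94% of its guide in F180del, against 20.8% and 20.5% in G199S and 1.16% and 1.23% in WT (log2 -2.26 ± 0.74, limma adjusted p = 0.652). The mir-244 hairpin came next, its passenger at 33.0% and 16.3% of its guide in F180del, against 1.02% and 2.43% in G199S and 1.64% and 4.56% in WT (3.83 ± 1.26, limma adjusted p = 0.652). Few reads carry this ratio, as the guide miR-244-5p had 97 and 374 reads in F180del, against 782 and 1069 in G199S. In the mir-72 hairpin the passenger was at 16.3% and 4.70% of its guide in F180del, against 3.09% and 1.92% in G199S and 1.72% and 0.955% in WT (1.84 ± 0.66, limma adjusted p = 0.662). These hairpins were picked after their values were seen.

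The ALG-1 IP of the same alleles gave a second set of libraries for the miRNAs named above; total RNA is called the input of the IP, so an IP library may share its lysate with a total RNA library and is then no independent sample. In the IP 21 of 269 miRNAs passed between F180del and G199S (7.81%), 8 higher (2.97%) and 13 lower (4.83%), and 22.7% had an unadjusted p under 0.05; with library totals as the scaling the split was 16 higher and 9 lower. Of the 6 miRNAs called in total RNA, 5 passed in the IP in the same direction, and of the 12 named from total RNA by p, 9 did. All 12, 6 on each side, kept their side without overlap in the IP. Of all miRNAs tested there, 40.9% had both F180del libraries above and 21.6% both G199S libraries above, and 62.5% did not overlap in either direction. miR-35-3p had 3182 and 3900 RPM in the F180del IP, against 31676 and 31988 RPM in the G199S IP (-3.53 ± 0.26, edgeR adjusted p = 9.09e-06). miR-40-3p, which missed the threshold in total RNA, had 1404 and 1493 RPM in the F180del IP, against 10913 and 11447 RPM in the G199S IP (-3.31 ± 0.30, edgeR adjusted p = 3.69e-05). Of the 8 family members 4 passed in the IP, and in 7 both G199S libraries were above both F180del libraries, set beside 21.6% of all miRNAs tested there.

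miR-8200-3p had 159 and 367 reads in the F180del IP, against 3 and 0 reads in the G199S IP, a pooled ratio of 255 with an exact 95% interval of 86.8 to 1241 for counting error (edgeR adjusted p = 0.000500). miR-48-3p had 4361 and 2626 RPM in the F180del IP, against 413 and 238 RPM in the G199S IP (3.07 ± 0.54, edgeR adjusted p = 0.00651). miR-79-3p rose in the F180del IP as well (1.97 ± 0.51, edgeR adjusted p = 0.0376), and miR-790-3p fell (-3.14 ± 0.71, edgeR adjusted p = 0.0262). miR-85-5p had 20 and 98 reads in the F180del IP and none in the G199S IP, at least 57.2-fold higher in F180del against 3 reads over the G199S IP libraries (edgeR adjusted p = 0.0262). let-7-5p and miR-237-5p, which did not pass in total RNA, were higher in the F180del IP (0.85 ± 0.21 and 1.04 ± 0.26, edgeR adjusted p = 0.0310 and 0.0306). Other list members that did not pass in total RNA went the other way. The neuronal miR-234-3p and the lifespan-linked miR-71-5p were lower in the F180del IP (-1.26 ± 0.27 and -1.08 ± 0.26, edgeR adjusted p = 0.0206 and 0.0262). The IP count was 6 without either F180del IP library, 7 without G199S IP library 1 and 8 without G199S IP library 2.

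Whether the difference between the alleles itself differed between total RNA and IP was tested as an interaction over all 24 libraries. No miRNA of 315 passed by edgeR (0.0% of those tested), with 4 (1.27%) at an unadjusted p under 0.05, and none by DESeq2, with 5 at an unadjusted p under 0.05. This does not show that the fractions responded alike.

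**Figure D5:**
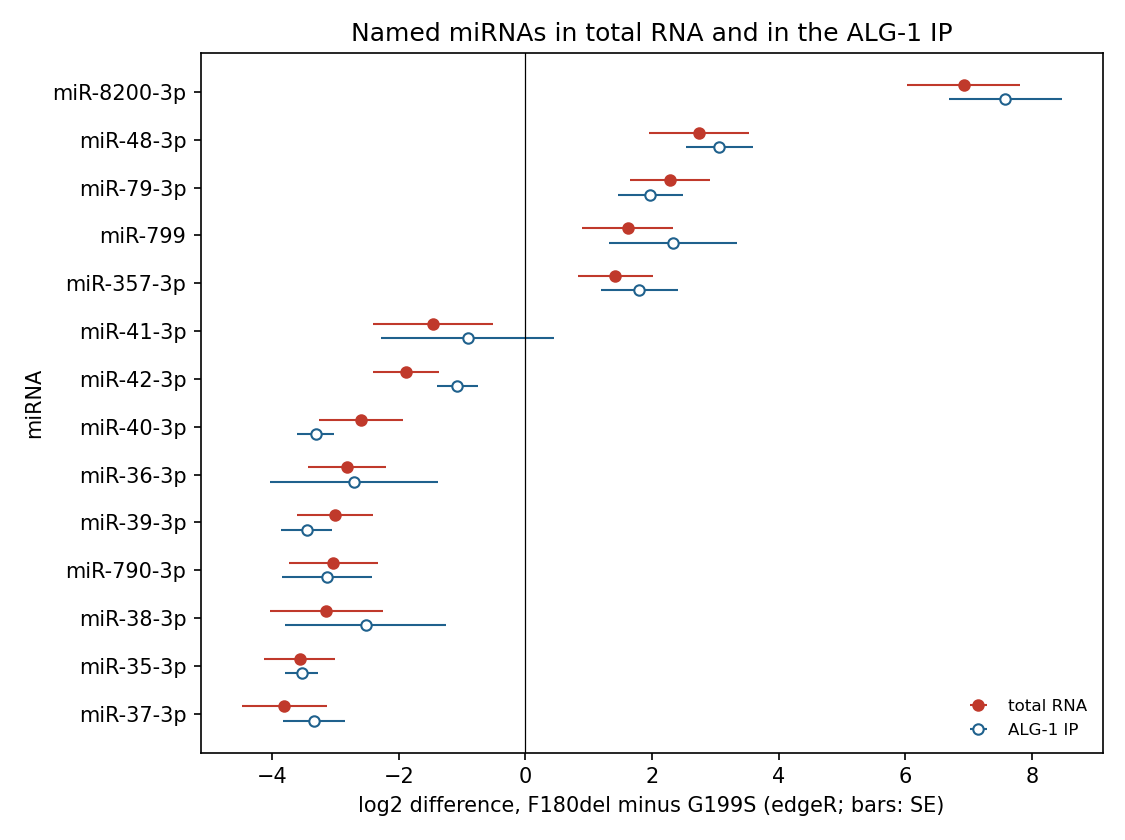
Log2 differences (F180del minus G199S, edgeR, bars are SE) of the named miRNAs and the miR-35 family in total RNA (filled) and in the ALG-1 IP (open), 2 libraries per allele and fraction; miR-85-5p is left out because it had no reads in the G199S IP. All values share their sign between fractions, and the widest bars are those of miR-41-3p, miR-36-3p and miR-38-3p in the IP.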

How the data were processed

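Small RNA libraries were prepared with a NEXTflex kit after gel size selection and sequenced on an Illumina NextSeq500, per the labels' protocols. The authors deposited raw read counts per mature miRNA and precursor. The submitters' processing notes name Bowtie 1.2.2, FastQC 0.11.8, DESeq2 and cutadapt, without saying what each was used for. Build, annotation and the handling of reads that match several miRNAs: not given in the sources used here. The table's 450 rows were reduced to 437 mature names by keeping the row with the highest total, which removed 13 rows. A further 48 per-sample columns that match no label were not used. RPM was computed as reads per 1000000 miRNA reads of a library. Mature sequences were not used here, and no read measures alg-1 itself, so genotypes were not checked.

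Counts were tested with edgeR 4.0.16 in R 4.3.3 (filterByExpr, TMM factors, quasi-likelihood F-test on group means), with all 12 total RNA libraries of the 6 genotypes, all 12 IP libraries, or all 24 for the interaction, in the fit, so that genotypes shared one estimate of the spread. P-values were adjusted by Benjamini-Hochberg across every miRNA tested (threshold 0.05); SE is the log2 difference divided by the square root of F. Passenger to guide ratios used limma 3.58.1 (trend) on log2 ratios with 0.5 added to both arms, where the passenger averaged 10 reads or more. DESeq2 1.42.0 was an alternative. The tests were tested on simulated data. Positions come from the WBcel235 gene annotation, where 247 of 248 precursors matched by name. Intervals cover counting error only, since PCR reads are not independent molecules.

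The members, lists and tests were chosen with earlier results of these data known. Named were up to 12 miRNAs per direction among those past the threshold or, where fewer than 6 passed, the 6 with the smallest p in that direction, together with list members and, where stated, features chosen after their values were seen.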

Additional observations from a re-analysis of the deposited data

How the results depend on the processing

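For total RNA the 6 calls became 15 without the filter, 22 on the compared groups alone and 14 with DESeq2, each set holding all 6, and 1 to 4 without any 1 library. The IP count of 21 became 70 when fitted on its own groups alone and 49 with DESeq2, and 6 to 8 without any 1 library. Against WT, the F180del count of 47 became 25 on its own groups alone and 81 with DESeq2, and 1 to 49 without any 1 library; the G199S count of 36 became 62 without the filter, 82 on its own groups alone and 73 with DESeq2, and 12 to 21 without any 1 library. The split of 34 higher and 13 lower in F180del against WT was 47 and 3 with library totals, and that of 33 and 3 in G199S against WT was 30 and 10 with RLE factors and 26 and 13 with all precursor rows. The interaction and the hairpin test stayed at 0 throughout.

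The difference in passenger share was 0.176 percentage points and ran from -0.0128 to 0.366 without any 1 library. The miR-35 family share differed by -9.20 points, by -5.14 without miR-35-3p (fewer miRNAs summed) and by -10.5 to -7.90 without any 1 library; these settings were chosen after seeing the data. The miR-35 family and the 12 named miRNAs kept their sign in total RNA under every alternative run. Signs were followed across settings only for the named miRNAs, the miR-35 family and, in total RNA, some list members, not for all miRNAs tested. Among these, signs turned only for the following values, none of them called. miR-85-3p (-0.46 as reported by edgeR with TMM) was 0.0265 with library totals and 0.26 with all precursor rows, and ran from -2.91 to 1.27 without any 1 library. Without any 1 library miR-84-5p ran from -1.21 to 1.64, miR-228-5p from -0.58 to 0.15, miR-71-5p from -0.59 to 0.0252 and, in the IP, miR-41-3p from -2.17 to 0.97. Against WT, miR-48-3p in G199S (0.25 with TMM) was -0.054 with RLE factors and DESeq2, -0.0789 with all precursor rows and -0.49 to 0.89 without any 1 library; miR-357-3p in G199S ran from -0.62 to 0.0173 and miR-37-3p in F180del from -0.12 to 0.96. The median log2 difference of all miRNAs tested was -0.15 with TMM, 0.18 with RLE, 0.16 with library totals and 0.39 with all precursor rows. The cause of these shifts was not tested.

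What libraries of the same number share across genotypes is not in the labels. The differences between libraries 1 and 2 correlated at 0.26 between F180del and G199S. Other genotype pairs ran from -0.32 to 0.61, the highest being V254I and H751L. Whether the number marks a batch was not tested. With the replicate number as a block, the total RNA count was 8, the IP count 23, and the counts against WT 62 (F180del) and 50 (G199S). With 2 libraries per allele, differences in total RNA of the size seen within the F180del pair (median 0.80 log2 units) were not called and may go undetected.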
